A study of Picea abies with 36 samples.

Results

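A set of 200 gene models of Norway spruce (Picea abies) was taken from the 70736 models of a hypocotyl RNA sequencing study. They were chosen for a step in level between 5 and 15 days in Mock. Their hormone means over all days, and IAA at 15 days, were held near Mock. Levels on other single days could still differ between treatments. The members were chosen by their values, in CPM (counts per library, scaled to a common library total). Of 31078 models with a Mock mean of at least 1 CPM, 1137 had every Mock library at 15 days at least 1.3 times above, or at least 1.3 times below, every Mock library at 5 days. Of these, 231 also had BAP, IAA and BAP+IAA means over all days within 0.75 of Mock on the log2 scale, with 0.5 CPM added, and IAA at 15 days within 0.75 of Mock at 15 days. The 200 with the largest ratio of the Mock means were kept. They hold 146 that rose and 54 that fell between 5 and 15 days in Mock.

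The hypocotyl, the stem below the cotyledons, received a single application of lanolin. For the hormone groups it carried the cytokinin BAP at 135 mM, the auxin IAA at 50 mM, or BAP+IAA, the combination at the same concentrations. Mock was the group without a named hormone. Seedlings had grown for 2 weeks in a phytotron before the application and were collected after 5, 10 or 15 days. Each of the 12 groups had 3 libraries. The labels do not say that the 3 libraries of a group came from separate plants, and the p-values therefore reflect spread among libraries that may be technical. The table marks the collections 1 to 3, and these numbers were read as the order of the days, which the table does not state. Every statement on a day or on age below rests on that reading.

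In a young conifer the hypocotyl first elongates and then turns to thickening, as a vascular cambium forms and lays down xylem and phloem. Auxin and cytokinin both act in this tissue, auxin on cell elongation and on the identity of cambial cells, cytokinin on cell division. A Mock series over days therefore records development along with any effect of handling or of lanolin, and these cannot be told apart here. No name is paired with an identifier in the files, so no role can be given to a member, and the labelled tissue could not be checked against marker genes. In bulk tissue, fewer cells of a type and less RNA per cell cannot be told apart.

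The 36 libraries held 12531117 to 22280720 reads, and between 39948 and 42914 models had a read. In a library, 3 counts stood for 0.13 to 0.24 CPM, a floor that covers counting error only. The members were mostly of low level. Their median mean over all libraries was 3.62 CPM, with a range of 0.723 to 3656 CPM, and the median member had 47 reads in its median library.

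**Figure D1:**
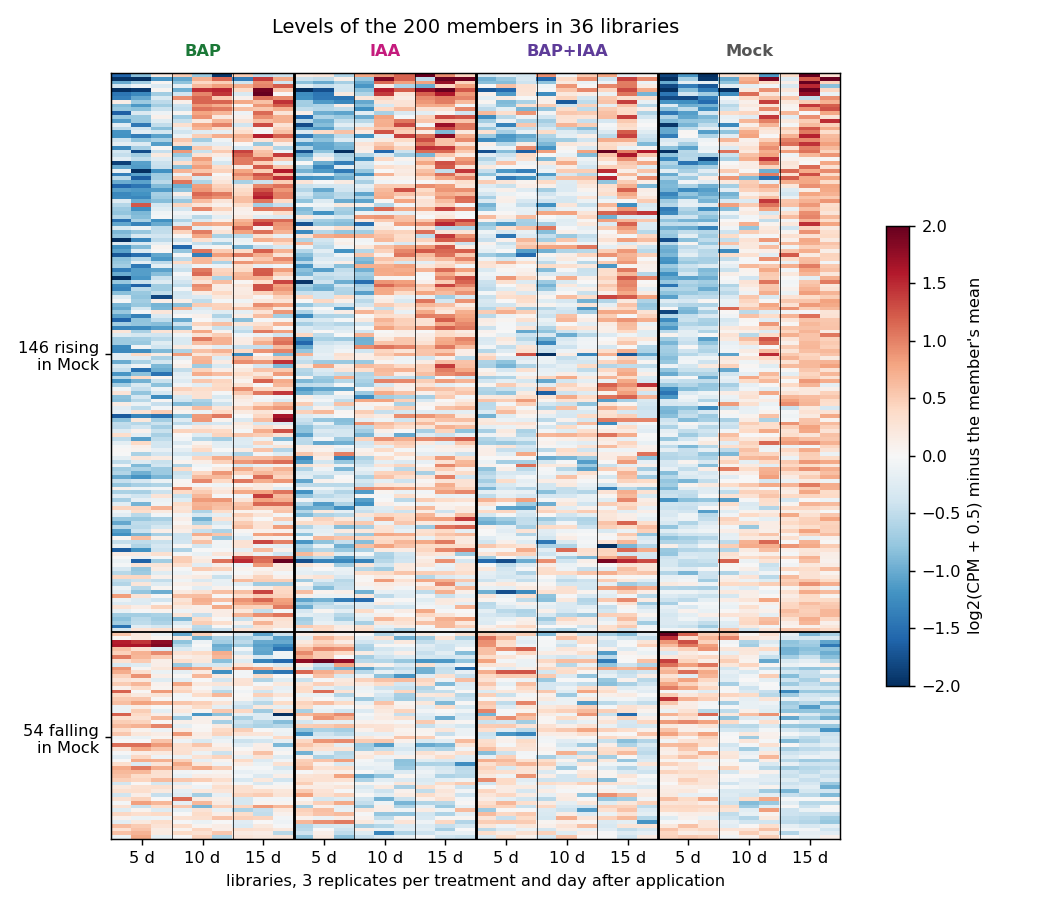
Levels of the 146 members rising and the 54 falling in Mock (rows, ordered by the size of the Mock change) in the 36 libraries (columns, grouped by treatment and day), as log2(CPM + 0.5) minus the mean of the member, with colours limited to the range from -2 to 2. BAP, IAA and Mock columns turn from blue at 5 days to red at 15 days in the upper block, and the BAP+IAA columns show less contrast.

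The Mock libraries that chose the members moved over a modest range. The 146 rising members had a median fold of 2.16 at 15 over 5 days, from 1.61 to 17.8, and 98 of them reached 2-fold. The 54 falling members had a median fold of 1.9, up to 5.09, and 24 of them reached 2-fold. At the edge of the set, the last member had a log2 ratio of 0.69 and the first model left out one of -0.68. The largest hormone ratio inside the set was 0.75 and the smallest outside, among models with as large a Mock change, was 0.754. These values chose the set and carry no test. For the record, 39 rising members (26.7%) and 18 falling members (33.3%) passed the edgeR test in Mock, where 1.07% and 0.617% of all tested models did, and nothing is read from this. In all, 31 models met every limit and were left out by size alone.

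Mock libraries at 10 days entered the choice only through the overall Mock mean. The rising members had made a median of 74.1% of their log2 change by 10 days (middle range 52.2 to 89.6%), and 110 of 146 stood nearer to their 15-day than to their 5-day level. The falling members had made a median of 52.9% by 10 days (24.3 to 68.3%), and 29 of 54 stood nearer to 15 days. At 19 rising members the 10-day mean was beyond the 15-day mean. The choice set the 5- and 15-day libraries apart, so a 10-day mean tends to fall between them. No share over all models was taken, and no time course is read from these values.

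The member with the largest rise was MA_10436687g0010. Its Mock libraries had 2.69, 11.1 and 2.54 CPM at 15 days, against 0.198, 0.611 and 0.112 CPM at 5 days. Replicate 2 stood well above the other libraries at 15 days, and the 5-day group held only 13 reads. MA_10433517g0010 had 2.2, 7.06 and 12.3 CPM at 15 days, against 0, 1.53 and 0.337 CPM at 5 days. Its libraries did not overlap between days but spread widely within each. Of the falling members, MA_10432182g0010 had 1.77, 0.875 and 1.12 CPM at 15 days, against 10.7, 5.27 and 3.14 CPM at 5 days. MA_630794g0010 had 0.489, 0.438 and 0.449 CPM at 15 days, against 2.84, 0.993 and 1.4 CPM at 5 days. The extreme members were thus all of low level.

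The most abundant members changed by less and with tighter replicates. MA_8872g0010, which fell, had 2049, 2015 and 2052 CPM in Mock at 15 days, against 3951, 3765 and 4163 CPM at 5 days. Under the hormones it also fell, but its means were above those of Mock on every day. Mock averaged 3960 ± 199, 2543 ± 266 and 2039 ± 20.4 CPM at 5, 10 and 15 days (SD, n = 3). With BAP it averaged 5949 ± 791, 3501 ± 452 and 2325 ± 79.4 CPM at 5, 10 and 15 days (SD, n = 3). With IAA it averaged 5041 ± 187, 4149 ± 148 and 2737 ± 236 CPM, and with BAP+IAA 4716 ± 435, 4080 ± 283 and 2837 ± 252 CPM on the same days (SD, n = 3). All 3 libraries at 15 days lay below all 3 at 5 days in each hormone treatment. In Mock the choice required this, and it also held IAA at 15 days near Mock. Its fall from 5 to 15 days was called in BAP (log2 change -1.37 ± 0.10, SE; edgeR adjusted p = 7.02e-10) and in BAP+IAA (-0.75 ± 0.10; edgeR adjusted p = 2.96e-06). It fell less with both hormones than with BAP alone, a difference of 0.62 ± 0.14 between the log2 changes (SE; edgeR adjusted p = 0.0103).

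MA_9401071g0010, the most abundant rising member, had 118, 127 and 118 CPM in Mock at 15 days, against 46.2, 60.4 and 65.6 CPM at 5 days. With BAP it had 207, 148 and 140 CPM at 15 days, against 103, 79.8 and 102 CPM at 5 days. With BAP+IAA it had 217, 177 and 147 CPM at 15 days, against 73, 80.2 and 89.1 CPM at 5 days. The libraries of the 2 days did not overlap in either treatment. The log2 change was 0.78 ± 0.15 (SE) with BAP and 1.14 ± 0.15 with BAP+IAA (edgeR adjusted p = 0.000566 and 4.66e-06).

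Whether hormone-treated hypocotyls made the same change between days was asked within each treatment, with no Mock library in the contrast. In a hormone group, seedling age and time since the single application of hormone cannot be told apart. BAP and BAP+IAA libraries had entered the choice only through their means over the 3 days, so their differences between days were not used directly. The Mock mean over the days contains the Mock change between days, so the limit may favour hormone courses like that of Mock. How far this raised the shares of members below was not tested. A change was called at a Benjamini-Hochberg adjusted p of 0.05 in edgeR's quasi-likelihood test over all 38239 models tested, and all 200 members were among these.

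With BAP alone most rising members and a minority of the falling members passed the test in the direction of Mock. From 5 to 15 days 88 of the 146 rising members (60.3%) rose, where 12.1% of all tested models rose. Of the 54 falling members 18 (33.3%) fell, where 9.31% of all tested models fell. No member was called in the direction opposite to Mock with edgeR or with DESeq2 (1 member without replicate 2 of BAP at 5 days), and at an unadjusted p of 0.05 1 falling member was higher. The median log2 change was 1.22 for the rising and -0.55 for the falling members, against -0.01 for all tested models. The sign was that of Mock at 138 of 146 rising and 43 of 54 falling members. All 3 libraries at 15 days lay above all 3 at 5 days for 94 rising members (64.4%, against 18.2% of all tested models). They lay below for 23 falling members (42.6%, against 15.5%). The group means kept the Mock order over 5, 10 and 15 days at 112 rising members (76.7%, against 27.3% of all tested models) and at 32 falling members (59.3%, against 26.4%). Without replicate 1 of all groups, a setting chosen after seeing the data, 87 members in place of 106 changed as in Mock.

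The members named here had the largest called changes among those with the libraries of both days apart. MA_10426078g0010 had 5.88, 10.9 and 8.27 CPM with BAP at 15 days, against 1.2, 0.993 and 1.35 CPM at 5 days. The groups did not overlap, and the log2 rise was 2.81 ± 0.63 (SE; edgeR adjusted p = 0.00209). Its Mock means were 7.36 ± 2.94 CPM (15 days) and 2.17 ± 1.23 CPM (5 days; SD, n = 3). MA_596179g0010 had 0.608, 5.01 and 0.875 CPM with BAP at 15 days, against 0, 0.0621 and 0.338 CPM at 5 days. Its log2 rise of 3.88 ± 1.41 (SE) just passed the threshold (edgeR adjusted p = 0.0495). The 5-day group held 6 reads, and in 7 of 12 alternatives the call was lost (edgeR or DESeq2 adjusted p from 0.0149 to 0.34).

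Of the falling members, MA_907632g0010 had 27.2, 21.3 and 19 CPM with BAP at 15 days, against 142, 143 and 169 CPM at 5 days. It fell by 2.76 ± 0.27 on the log2 scale (SE; edgeR adjusted p = 3.63e-07). Its Mock means were 23.7 ± 5.92 CPM (15 days) and 82.8 ± 12.2 CPM (5 days; SD, n = 3), so BAP and Mock stood apart at 5 days and close together at 15 days. MA_8082682g0010 had 5.67, 3.93 and 3.9 CPM with BAP at 15 days, against 25.9, 23.5 and 30.3 CPM at 5 days, and fell by 2.57 ± 0.27 (SE; edgeR adjusted p = 5.25e-07). Its Mock means were 4.51 ± 0.659 CPM (15 days) and 16.2 ± 4.69 CPM (5 days; SD, n = 3). Both had lost most of their level by 10 days with BAP, at 33.1 ± 11.5 and 5.79 ± 1.7 CPM (SD, n = 3).

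By 10 days fewer members had passed the test with BAP. From 5 to 10 days 23 rising members (15.8%) rose, where 1.69% of all tested models rose, and 4 falling members (7.41%) fell, where 1.3% did. None was called the opposite way by edgeR or DESeq2, and 1 rising member was lower at an unadjusted p of 0.05. Without replicate 2 of BAP at 10 days 1 member was called the opposite way. The median log2 change was 0.75 and -0.28. Same-numbered BAP libraries of 5 and 10 days deviated together, and with the replicate number as a block 46 rising members rose (3.06% of all tested models) and 4 falling members fell (1.89%). The count of 27 members that moved as in Mock fell to 12 and 8 without replicate 1 or 2 of BAP at 5 days, and to 11 and 8 without replicate 2 or 3 of BAP at 10 days.

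**Figure D2:**
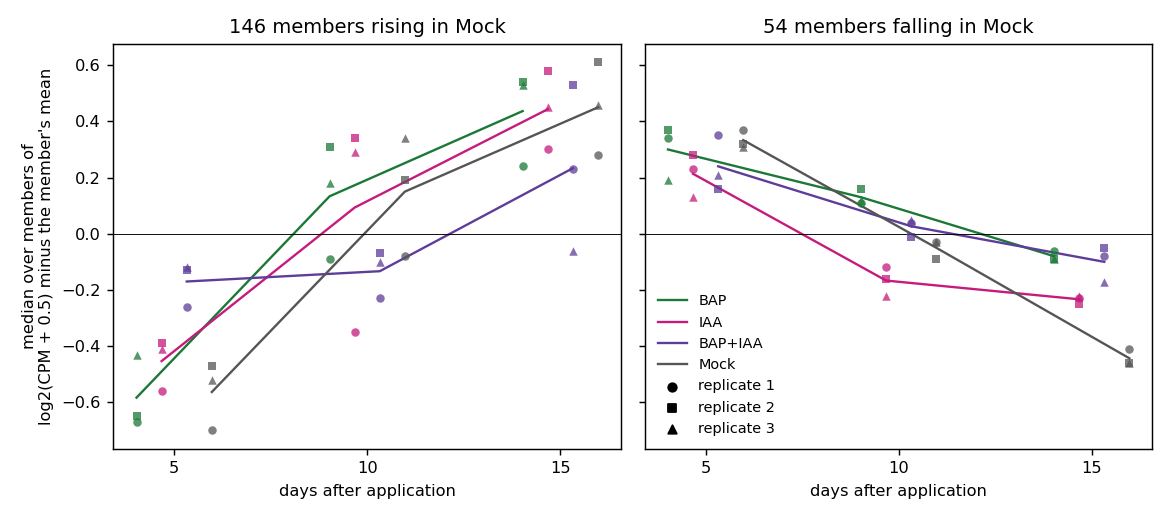
Median over the 146 rising members (left) and the 54 falling members (right) of log2(CPM + 0.5) minus the mean of the member, for each library (points, shaped by replicate) with the mean of 3 libraries per treatment (lines), by days after application with treatments set side by side. Rising members in BAP+IAA libraries lie between -0.26 and -0.07 at 5 and 10 days, while the other treatments lie between -0.7 and -0.39 at 5 days.

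IAA at 15 days had been held near Mock by the choice of members, so only the difference between 10 and 5 days was tested in IAA. From 5 to 10 days 47 rising members (32.2%) rose and 1 fell, where 16.4% of all tested models rose. Of the falling members 14 (25.9%) fell and 3 rose, where 12.3% of all tested models fell. The share of members was thus higher than over all models in both directions, with medians of 0.69 and -0.45 on the log2 scale against 0.05 for all tested models. The 61 members that moved as in Mock numbered 39 without replicate 1 of IAA at 5 days, and 39 and 35 without replicate 2 or 3 of IAA at 10 days. As a description, the median log2 change from 5 to 15 days with IAA was 1.07 for the rising and -0.41 for the falling members.

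MA_10431606g0010 had 5.66, 6.48 and 5.32 CPM with IAA at 10 days, against 1.75, 1.44 and 1.4 CPM at 5 days. It rose by 1.97 ± 0.34 on the log2 scale (SE; edgeR adjusted p = 6.24e-05), and at 15 days it averaged 9.78 ± 0.334 CPM (SD, n = 3). MA_479316g0010 had 1.86, 3.96 and 6.27 CPM at 10 days, against 0.291, 0.987 and 1.82 CPM at 5 days, groups that just do not overlap. Its log2 rise of 2 ± 0.71 (SE; edgeR adjusted p = 0.0347) was not called in 5 of 12 alternatives (adjusted p from 0.00815 to 0.179).

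MA_80954g0020 fell with IAA from a 5-day level above that of Mock. It had 1.07, 1.03 and 0.84 CPM at 10 days, against 7.27, 8.57 and 7.16 CPM at 5 days, a log2 change of -2.93 ± 0.54 (SE; edgeR adjusted p = 0.000112). At 5 days Mock had 5.34, 2.6 and 1.96 CPM. MA_18819g0010 had 2.06, 2.64 and 2.85 CPM with IAA at 10 days, against 5.82, 7.32 and 7.09 CPM at 5 days (log2 change -1.38 ± 0.30, SE; edgeR adjusted p = 0.000661).

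With both hormones together fewer members passed the test of the change between days than with BAP alone. From 5 to 15 days 27 rising members (18.5%) rose, where 10.7% of all tested models rose, and 3 fell. Of the falling members 12 (22.2%) fell, where 10.2% of all tested models fell, and 3 rose. The medians were 0.44 and -0.45 on the log2 scale, against 0.02 for all tested models. The sign was still that of Mock at 120 of 146 rising and 43 of 54 falling members. All 3 libraries at 15 days lay above all 3 at 5 days for 44 rising members (30.1%, against 19.7% of all tested models) and below for 18 falling members (33.3%, against 17.1%). The group means kept the Mock order over the 3 days at 63 rising members (43.2%, against 23.7%) and at 23 falling members (42.6%, against 21.1%). The 39 members that moved as in Mock numbered 25 without replicate 1 of BAP+IAA at 5 days and 25 without replicate 2 of BAP+IAA at 15 days.

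From 5 to 10 days the combination moved few members. Of the rising members 7 rose (4.79%) and 2 fell, where 4.79% of all tested models rose (4 fell with the replicate number as a block), and of the falling members 2 fell (3.7%) and 2 rose, where 3.81% of all tested models fell. These shares are near the background. The median of the rising members was 0.06 on the log2 scale, and 80 of 146 were higher at 10 days. The 9 that moved as in Mock numbered 3 without replicate 1 of BAP+IAA at 10 days and 5 without replicate 3 of either day, or without replicate 1 of all groups. The 4 opposite to Mock numbered 1 without replicate 2 of BAP+IAA at 5 days and 2 without replicate 3 of BAP+IAA at 10 days.

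Among members with the libraries of both days apart, the largest called rises with both hormones were at MA_482647g0010 and MA_10430121g0020. MA_482647g0010 had 12.2, 9.24 and 8.07 CPM at 15 days, against 0.682, 0.503 and 1.23 CPM at 5 days (log2 change 3.54 ± 0.50, SE; edgeR adjusted p = 1.04e-05). Its Mock means were 3.57 ± 0.924 CPM (15 days) and 2.04 ± 0.134 CPM (5 days; SD, n = 3), so the combination was below Mock at 5 days and above it at 15 days. Neither level was particular to the combination. BAP alone had 10.3 ± 4.25 CPM (15 days) and 1.63 ± 1.01 CPM (5 days; SD, n = 3). IAA alone had 3.85 ± 1.89 CPM (15 days) and 0.758 ± 0.218 CPM (5 days; SD, n = 3). MA_10430121g0020 had 19.2, 9.31 and 14.4 CPM at 15 days, against 0.955, 2.2 and 1.08 CPM at 5 days (log2 change 3.32 ± 0.60, SE; edgeR adjusted p = 0.000215).

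The largest called falls came from both directions of the Mock change. MA_78471g0010, which also fell in Mock, had 2.81, 2.42 and 2.64 CPM with both hormones at 15 days, against 6.27, 9.24 and 9.33 CPM at 5 days (log2 change -1.68 ± 0.35, SE; edgeR adjusted p = 0.000915). MA_6558g0010 went against its Mock course. With both hormones it had 5.31, 11.7 and 14.8 CPM at 15 days, against 33.1, 29.6 and 26.7 CPM at 5 days, and fell by 1.51 ± 0.25 (SE; edgeR adjusted p = 6.29e-05). In Mock it had 41.8, 38.4 and 32.2 CPM at 15 days, against 24.3, 17.3 and 21.5 CPM at 5 days. With BAP alone its means were 22.6 ± 4.37 CPM (15 days) and 17.6 ± 2.88 CPM (5 days), and with IAA alone 29.3 ± 0.352 and 15.5 ± 4.65 CPM (SD, n = 3). It met the limits on the hormone means although its courses in BAP+IAA and Mock were opposite. The BAP+IAA mean was above Mock at 5 days (29.8 against 21 CPM). It was well below Mock at 10 days (16.7 against 35.9 CPM) and 15 days (10.6 against 37.4 CPM).

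**Figure D3:**
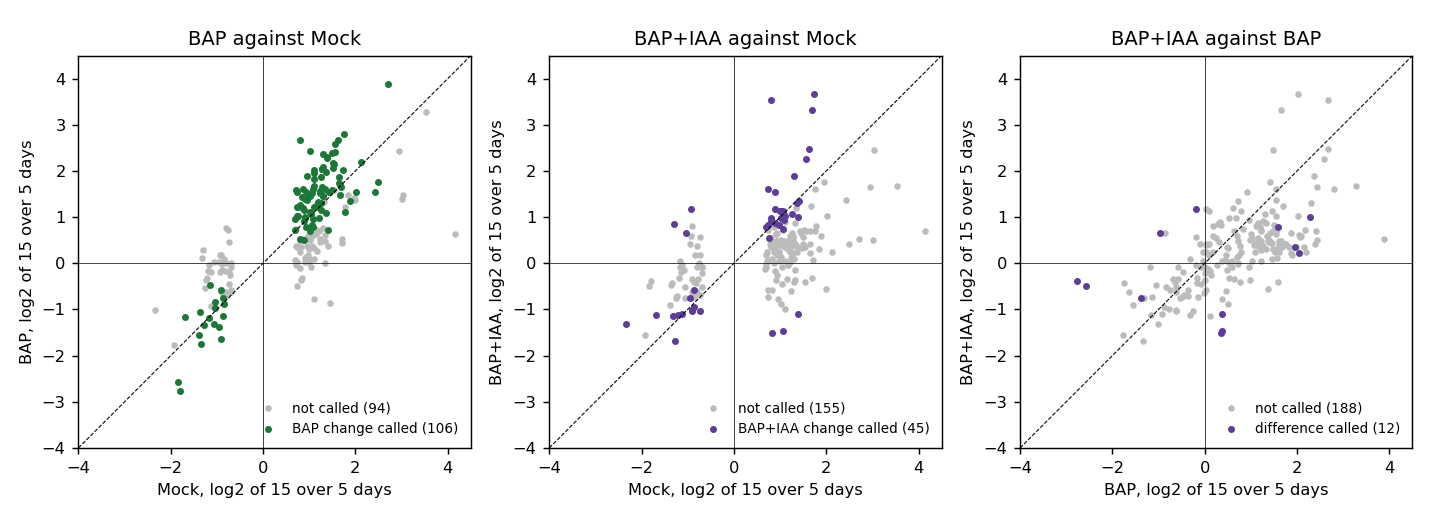
Log2 change from 5 to 15 days of the 200 members in BAP (left) and in BAP+IAA (middle) against Mock, and in BAP+IAA against BAP (right), with a dashed line of equal change. Coloured points passed the edgeR test of the change on the vertical axis (106 in BAP, 45 in BAP+IAA) or, at the right, of the difference between the 2 changes (12). The Mock values chose the members.

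The change between days was compared directly between the combination and BAP. For 119 of 146 rising members the change from 5 to 15 days was smaller with both hormones than with BAP alone, and the median difference was -0.68 on the log2 scale. Of the 54 falling members 32 had a smaller and 22 a larger change with both hormones, with a median difference of 0.09. A negative median was also found for other models rising in Mock, as given below, so it was not particular to the members. The difference was called lower at 7 rising members (4.79%, against 2.13% of all tested models) and higher at 5 falling members (9.26%, against 1.43%), and 3.56% of all tested models were called in either direction. None was called larger in the direction of Mock by edgeR or DESeq2, and at an unadjusted p of 0.05 there were 3 rising and 3 falling members with such a difference. Most single members thus did not pass this test, which does not show that their changes were equal. With the replicate number as a block the count was 22 in place of 12 (17 in place of 7 rising members), and without replicate 1 of BAP+IAA at 15 days it was 7. MA_907632g0010 had the largest called positive difference, 2.37 ± 0.36 (SE; edgeR adjusted p = 0.000597), with 35, 45.5 and 63.1 CPM in the combination at 15 days, against 85.9, 57.6 and 42.7 CPM at 5 days. Those libraries overlap between days, unlike the BAP libraries given above. MA_6558g0010 had the largest called negative difference, -1.86 ± 0.34 (SE; edgeR adjusted p = 0.00239).

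Levels on single days are given without a test. The choice of members held the BAP and BAP+IAA means over the 3 days near Mock, so a higher level on 1 day tends to be offset on the others, and no order of days is read from them. The median log2 difference of the rising members between both hormones and BAP alone was 0.47 at 5 days, -0.27 at 10 days and -0.21 at 15 days. It was positive at 116, 49 and 46 of 146 members on these days. For the falling members the medians were -0.06, 0.04 and 0.04.

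Levels against Mock on single days are likewise a description, since Mock at 5 and 15 days also chose the members. The rising members had a median log2 ratio to Mock at 5 days of -0.03 with BAP, 0.16 with IAA and 0.41 with both hormones, and 115 of 146 were above Mock with both. At 10 days these medians were -0.02, -0.04 and -0.3, and at 15 days 0.06, 0.05 and -0.24. The falling members stood above Mock at 15 days in every treatment, by a median of 0.36 with BAP, 0.37 with IAA and 0.4 with both. At 5 days their medians were -0.02, -0.14 and -0.11. All treatments share the Mock libraries, so these medians are not independent of each other.

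The difference of the IAA and BAP changes from 5 to 10 days was called at 13 members, where 11.7% of all tested models were called. It was positive at 5 rising members (3.42%) and 4 falling members (7.41%), against 6.72% of all tested models. It was negative at 3 rising members (2.05%) and 1 falling member (1.85%), against 4.96%. The 13 numbered 7 without replicate 3 of IAA at 5 days, and 8 each without replicate 3 of BAP at 5 days, of BAP at 10 days or of IAA at 10 days. MA_8082682g0010 had the largest called positive difference, 1.81 ± 0.37 (SE; edgeR adjusted p = 0.00116). With IAA it had 6.33, 6.66 and 9.74 CPM at 10 days, against 9.67, 11.5 and 9.47 CPM at 5 days, a much smaller drop than with BAP. MA_285723g0010 had the largest called negative difference, -2.89 ± 0.89 (SE; edgeR adjusted p = 0.0305). It had 10 reads over the BAP group at 5 days, and the call was lost in 7 of 18 alternatives (adjusted p from 0.00915 to 0.397).

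**Figure D4:**
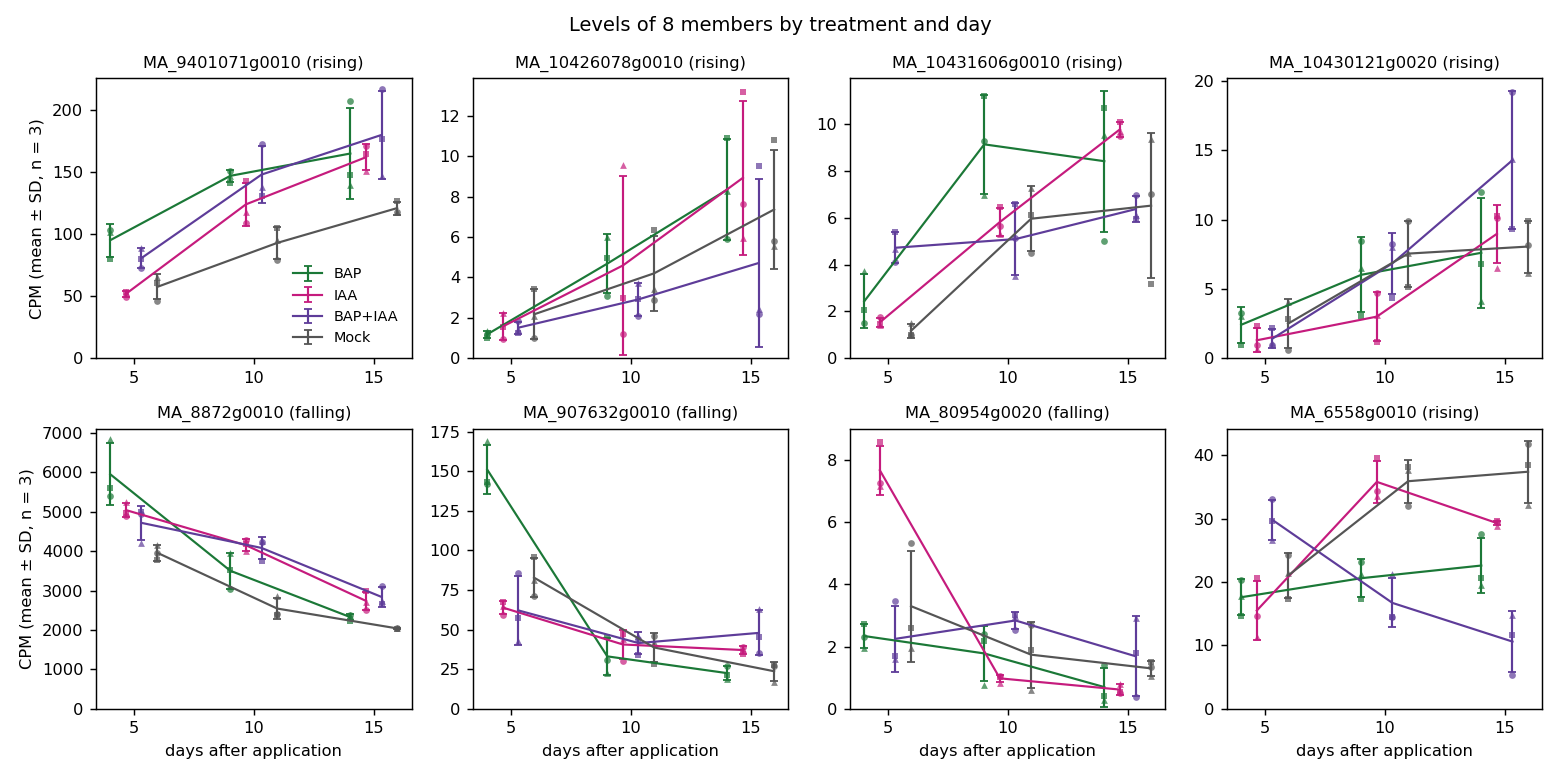
CPM of 8 named members by days after application, with points for the 3 libraries (shaped by replicate), lines through the means and bars of 1 SD, treatments set side by side at each day. MA_8872g0010 falls in all treatments from 5949, 5041, 4716 and 3960 CPM at 5 days (BAP, IAA, BAP+IAA and Mock), while MA_6558g0010 rises in Mock and falls to 10.6 CPM in BAP+IAA.

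The calls of BAP and of the combination share no library. Of the 88 members that rose with BAP, 23 (26.1%) also rose with both hormones, which was 85.2% of the 27 that did. Over all tested models 36% of those that rose with BAP also rose with both hormones, which was 40.6% of those that did. Of the 18 members that fell with BAP, 5 (27.8%) also fell with both hormones, 41.7% of the 12, where the shares over all tested models were 48.5% and 44.4%. These shares have unlike bases. With BAP 60.3% of all rising members rose, against 12.1% of all tested models, and 33.3% of all falling members fell, against 9.31%. A larger overlap among members is thus not read as a closer link between the treatments, and no test of these overlaps was run. In BAP at 15 days, BAP+IAA at 15 days and IAA at 10 days, all against 5 days, 7 rising and 3 falling members changed as in Mock each time, and 39 rising and 26 falling members in none. Of all tested models 1.95% rose and 2.58% fell in all 3, and 71.8% rose and 78.8% fell in none. Across the 146 rising members, which all share the same libraries, the change with BAP correlated with the Mock ratio at r = 0.42 (Spearman rho 0.48) and with the change in the combination at r = 0.5 (rho 0.46). For the 54 falling members these were r = 0.57 (rho 0.45) and r = 0.47 (rho 0.55). The limits on the hormone means may raise the correlations with the Mock ratio, which was not tested.

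The shares called are given by level of the member. Of 34 rising members under 2 CPM 23.5% rose with BAP from 5 to 15 days, of 66 between 2 and 10 CPM 65.2%, and of 46 at 10 CPM or more 80.4%. Over all tested models in these classes 9.69, 11.8 and 14% rose. The median log2 change of the rising members was 0.49, 1.43 and 1.22 in the 3 classes. Their Mock ratio, by which they were chosen, had medians of 1.21, 1.18 and 1.08. Of 25, 22 and 7 falling members in these classes 20, 36.4 and 71.4% fell with BAP, where 3.21, 7.24 and 15.4% of all tested models did. With both hormones 11.8, 19.7 and 21.7% of the rising members rose, against 7.32, 9.42 and 14.2% of all tested models. Of the falling members 12, 31.8 and 28.6% fell with both hormones, against 3.31, 7.85 and 17% of all tested models. The part of depth in these differences was not tested.

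The other 906 models with the same step between Mock days, which were past a hormone limit, are given as a description. They failed a limit on hormone means that the members had to meet, so differences between the sets may follow from the choice itself. The 31 models left out by size alone were not compared. Of their 662 rising models 44.7% rose with BAP and 3.63% fell, and 24.5% rose with both hormones while 17.8% fell, against 2.05% of the rising members. Of their 244 falling models 57.8% fell with BAP and 37.3% with both hormones, a higher share than among the members in both. With IAA from 5 to 10 days 54.7% of their rising models rose and 2.72% fell, against 32.2% and 0.685% of the rising members. Of their falling models 23.4% fell and 15.2% rose with IAA, against 25.9% and 5.56% of the falling members. The difference between the changes with both hormones and with BAP from 5 to 15 days had a median of -0.8 for their rising models. It was called lower at 16% of these, against 4.79% of the rising members. For their falling models the median was 0.41, and 7.38% were called higher, against 9.26% of the falling members. These differences from the members were not tested.

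Replicate 1 stood low over the rising members. It had the lowest median of the 3 libraries in 11 of 12 groups, the exception being BAP+IAA at 15 days, where replicate 3 was lowest. The widest case was IAA at 10 days, with medians of -0.35 in replicate 1 and 0.34 and 0.29 in replicates 2 and 3, while IAA at 5 days lay between -0.56 and -0.39. Without replicate 1 in any group 65 members, in place of 61, changed as in Mock from 5 to 10 days with IAA, and 30 in place of 39 from 5 to 15 days with both hormones. With the replicate number as a block these counts were 74 and 44. The members lay on 198 scaffolds of the assembly, as read from their identifiers. On 2 scaffolds they lay in pairs, and all 4 of these members rose in Mock, with BAP log2 changes of 1.15 and 1.22 in one pair and 1.36 and 1.6 in the other. Another model shared the scaffold of 16.5% of the members and of 18.6% of all tested models.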

How the data were processed

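The authors deposited raw read counts per gene model for 36 libraries, whole numbers with no normalisation. Per the submitters' processing notes, the tools were Trimmomatic, STAR and HTSeq, without versions. Build, annotation and strandedness of counting are not given in the sources, so reads of overlapping, antisense or near-identical models may be shared or lost. Levels are CPM, the count divided by the column sum. Counts were fitted with edgeR 4.0.16 under R 4.3.3 and limma 3.58.1, using filterByExpr (38239 of 70736 models tested), TMM factors of 0.94 to 1.07 and 12 group means with 24 residual degrees of freedom, robust. P-values are 2-sided and adjusted over all tested models, and SE is the log2 change divided by the root of F. The fit was also run on simulated counts with a single fixed spread and no replicate effect, unlike these data. No result of that run is given or relied on here. The members, contrasts and alternatives were chosen with earlier results of these data known.

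Named members followed a rule: the largest Mock changes, the most abundant member of each direction, and for each tested contrast the 2 largest called rises and falls with libraries of both days apart and a mean of at least 1 CPM, plus the largest called differences between treatments. No replicate pair agreed within counting error, with chi-square over degrees of freedom from 6.74 to 15.9 in 36 pairs. Same-numbered libraries were taken as paired only for BAP at 10 and 5 days, where the deviations from the group means of replicates 1, 2 and 3 correlated at 0.22, 0.14 and 0.15, all over 0.1. That pairing is a reading of the data, since the labels give no meaning to the number. It did not take account of replicate 1, which stood lowest over the rising members in 11 of 12 groups. DESeq2 1.42.0 was an alternative, beside other scalings, no filter, the replicate block, left-out libraries and changed rules for members. Figures were drawn with matplotlib 3.10.9.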

Additional observations from a re-analysis of the deposited data

Results flagged for a closer look

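The change from 5 to 15 days differed between BAP+IAA and BAP at 12 members, by a direct test of the difference in edgeR, 6% of the members against 3.56% of all tested models. The largest called differences were 2.37 at MA_907632g0010 and -1.86 at MA_6558g0010 on the log2 scale, both called in every alternative run (adjusted p of at most 0.00298 and 0.0339). The change from 5 to 10 days differed between IAA and BAP at 13 members, 6.5% against 11.7% of all tested models, a share below the background. The largest called differences were 1.81 at MA_8082682g0010, called in every alternative run (adjusted p of at most 0.0211), and -2.89 at MA_285723g0010, which rests on few reads and was lost in 7 of 18 alternatives.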

How the results depend on the processing

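The 106 members that changed with BAP and the 39 that changed with both hormones from 5 to 15 days as in Mock stayed within 1.5 times under RLE factors, total counts, no filter, DESeq2 and the replicate block. The counts for BAP from 5 to 10 days were less stable, at 17 with no filter, 52 with DESeq2 and 50 with the replicate block in place of 27. The replicate block gave 22 in place of 12 members with a BAP+IAA minus BAP difference. It gave 4 in place of 2 rising members that fell with both hormones from 5 to 10 days, and moved no other total by over 1.5 times. Same-numbered libraries correlated at -0.05 to 0.22 (BAP, 15 and 5 days), 0 to 0.03 (BAP+IAA, 15 and 5 days), -0.09 to 0.03 (BAP+IAA, 10 and 5 days) and 0.03 to 0.11 (IAA), and all 3 correlated best with their own number only for BAP at 10 and 5 days.

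With CPM from TMM-scaled library sizes in the rule, 184 of 200 members were shared and no count moved by over 1.5 times. A hormone limit of 0.5 left 103 members, 89 of them shared. Of the 103, 59 changed as in Mock with BAP from 5 to 15 days, 18 with both hormones (1 opposite), 31 with IAA from 5 to 10 days (0 opposite), and 1 was opposite with both hormones from 5 to 10 days. Both difference tests then gave 7. The cause was not tested.

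Left-out libraries (each library of a contrast, and replicate 1 of all groups) gave these ranges of members as in Mock and opposite to it. From 5 to 15 days they were 72 to 103 and 0 to 1 with BAP, and 25 to 36 and 4 to 6 with both hormones. From 5 to 10 days they were 8 to 36 and 0 to 1 with BAP, 3 to 9 and 1 to 3 with both, and 35 to 79 and 1 to 4 with IAA. The differences ranged from 7 to 17 (BAP+IAA and BAP) and from 7 to 13 (IAA and BAP). Named members kept their direction in all 216 alternatives, and 197 kept the call. The 34 rising and 25 falling members under 2 CPM have the fewest reads, and the part of depth in the calls was not tested.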
